A study of Homo sapiens with 96 samples.

Results

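The transcripts described here are those of 10 desmosome genes among the 19775 genes with a named probe set on the arrays: the desmogleins DSG1, DSG2 and DSG3, the desmocollins DSC1, DSC2 and DSC3, and the plaque proteins desmoplakin (DSP), plakophilin 1 (PKP1), plakophilin 3 (PKP3) and plakoglobin (JUP). They were chosen by name. Each had 1 to 4 probe sets, and the brightest of them, on average over the arrays of HaCaT constructs, stood for the gene. The data are 96 Affymetrix U133 Plus 2.0 arrays, 1 per RNA sample, with all values on a log2 scale. HaCaT is a spontaneously immortalized human keratinocyte line. All 4 constructs were HaCaT cells that carried a lentiviral vector, either empty (HaCaT-Mock) or with the CMV promoter driving EGFR, the receptor of epidermal growth factor (HaCaT-EGFR), a mutant form of the GTPase HRAS (HaCaT-HRAS) or a mutant form of the PI3K subunit PIK3CA (HaCaT-PIK3CA). Each line was treated with PBS (3 arrays, 2 in HaCaT-EGFR), with 10 nM afatinib, which blocks ERBB kinases irreversibly (3 arrays), with gefitinib at 100 nM, which blocks the EGFR kinase reversibly (3 arrays, 2 in HaCaT-PIK3CA), or with 100 nM cetuximab, an antibody against EGFR (3 arrays). Other cultures received siRNA against EGFR (siEGFR) or a scramble siRNA (3 arrays each per line), or scramble siRNA together with an inhibitor (1 array each per line) or with PBS (2 arrays, 1 in HaCaT-Mock). The remaining 7 arrays held the head and neck carcinoma lines SCC1 (2), SCC25 (2) and FaDu (2, of which 1 under PBS) and parental HaCaT cells (1). The labels name 4 array batches, J, E, M and P, and do not say whether the arrays of a group came from separate cultures, so that the p-values rest on a spread between arrays that may be only technical.

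Desmosomes are spot-like junctions that tie the keratin filaments of neighbouring epithelial cells together. Desmogleins and desmocollins are cadherins that span the membrane and bind each other between cells, plakoglobin and the plakophilins bind their tails inside the cell, and desmoplakin links this plaque to keratin. In stratified epidermis DSG2, DSG3, DSC2 and DSC3 belong mainly to the lower layers and DSG1, DSC1 and PKP1 to the upper ones, and antibodies against DSG3 or DSG1 cause pemphigus.

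The 6 cadherin genes lie together on chromosome 18, in the order DSC3, DSC2, DSC1, DSG1, DSG4 (no member), DSG3, DSG2, whereas PKP1 lies on chromosome 1, DSP on 6, PKP3 on 11 and JUP on 17. The RefSeq table of promoters (GRCh38.p14, 250 bases before to 50 after each start) held 11 entries for 9 of the 10 genes, and PKP3 was not listed. The letters shown are the 130 bases before the start of DSG1, of DSG3 and of an entry of DSC2. DSG1 and DSG3 stand in the same gene group, and DSG1 lay near the bottom of the signal range and DSG3 high in it. The DSC2 entry is the one with most matches to the AP-2 letters, since AP-2alpha was the transcription factor the study asked about. Capitals mark the stretches of at least 12 bases that the DSG1 and DSG3 windows have in common. In DSC2 they mark the 1 of the entry's 2 matches to the AP-2 letters that lies within the printed bases.
DSG1, chr18:31318030-31318159, plus strand: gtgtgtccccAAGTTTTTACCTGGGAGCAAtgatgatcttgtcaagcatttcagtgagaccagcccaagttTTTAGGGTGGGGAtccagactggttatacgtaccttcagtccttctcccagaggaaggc
DSG3, chr18:31447611-31447740, plus strand: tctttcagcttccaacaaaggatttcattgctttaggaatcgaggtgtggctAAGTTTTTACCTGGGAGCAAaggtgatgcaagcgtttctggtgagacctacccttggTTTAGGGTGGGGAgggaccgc
DSC2, chr18:31102422-31102551, minus strand: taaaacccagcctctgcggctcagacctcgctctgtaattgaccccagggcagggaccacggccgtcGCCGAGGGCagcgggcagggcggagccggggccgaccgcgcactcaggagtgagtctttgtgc
The windows of DSG1 and DSG3 had runs of 20 and 13 bases in common, in the same order, and no other pair of member windows had a run longer than 12. The letters GCCNNNGGC, searched on both strands, matched in DSG2, in both DSC2 entries and in 1 of 2 JUP entries, against 23.2% of all 35116 promoters of 300 bases. The AP-1 letters TGANTCA matched in none of the 11 entries and in 7.71% of all promoters. The GC content was lowest in DSG3 (44.0%) and DSG1 (45.7%), DSC1 came next, and the other 6 genes lay between 60.7% and 77.0%.

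Of the 10 transcripts, 8 lay at or above the 84.25 percentile of all 54675 probe sets on each of the 89 HaCaT construct arrays. The lowest was a DSG3 value and the highest, 99.5, a DSP value. DSG1, between the 0.6145 and the 11.52 percentile, and DSC1, between the 1.481 and the 40.25, lay near the bottom of the signal range. The keratinocyte markers KRT5, KRT14, CDH1 and SFN were between the 94.49 and the 99.98 percentile on the 89 construct arrays. Of 6 markers of other cell types, PTPRC and MLANA stayed at or under the 31.77 percentile and COL1A2 at or under the 51.8, whereas PECAM1, DES and COL1A1 gave signals between the 55.66 and the 80.1 percentile.

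Some arrays stood apart. In replicate 1 of HaCaT-HRAS under gefitinib the 3' probe set of ACTB exceeded the 5' probe set by 3.5 in log2 units, where no other construct array went beyond 1.654, and its DSG2 (10.26) and DSP (11.27) were the lowest of all 89. The transcript of DUSP6, an ERK phosphatase chosen as a guide after its values were seen, was at 9.57 in replicate 1 of HaCaT-PIK3CA under afatinib against 8.16 and 7.73 in the other afatinib arrays of that line. The single HaCaT-Mock array with scramble siRNA and PBS had DUSP6 at 8.13, against 9.49 to 10.18 in the HaCaT-Mock arrays under PBS alone. Of the 16 arrays of batch E, 12 came from cultures with scramble siRNA and 4 from HaCaT-Mock cultures without it, and in each of these 4 DSC2 (10.28 to 10.85) was above the other HaCaT-Mock arrays of the same treatment. JUP and PKP1 were higher in batch M than in batch J in most groups, and batch was a term in the model. Results that rest on the gefitinib array and on the HaCaT-Mock array with scramble siRNA and PBS are given below with and without them. Without the HaCaT-PIK3CA array of high DUSP6, 8 members were called for the inhibitors averaged over lines, as with it. Without the 4 HaCaT-Mock arrays of batch E that number was 8 as well, and it was 6 in place of 7 in HaCaT-Mock alone (DSP lost the call, 0.20, adjusted p = 0.0946). Only comparisons whose groups include HaCaT-Mock under PBS or an inhibitor, without siRNA, were refitted without these 4 arrays. The other calls lost there are named beside their results.

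The inhibitor comparison asks how blocking EGFR changed the junction genes. Averaged over the 4 lines, 8 of the 10 transcripts were higher under the inhibitors than under PBS and none was lower (35 arrays against 11, limma, adjusted p under 0.05 over all genes), while 19.8% of all genes tested were called higher. The median change of the 10 transcripts was 0.43, against -0.01 over all genes. Each array measured the RNA of a whole culture, so that a transcript raised in some cells and one raised in all cells cannot be told apart.

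Among the cadherins and by the probe sets used, DSG3 rose most, by 0.73 (SE 0.08, adjusted p = 1.11e-10, 1.654-fold). In HaCaT-Mock it was at 9.37, 9.41 and 8.75 under PBS and between 9.34 and 10.54 (median 10.15) in the 9 inhibitor arrays. The lowest inhibitor array was cetuximab replicate 2 of batch E, the batch of the lowest PBS array, and the other 8 lay above every PBS array. In HaCaT-EGFR DSG3 was at 9.54 and 9.79 under PBS and between 10.24 and 10.92 (median 10.76) under the inhibitors, with no overlap. In HaCaT-PIK3CA it went from 9.10, 9.18 and 8.60 to between 8.75 and 10.15 (median 9.48), and 6 of 8 inhibitor arrays lay above all PBS arrays.

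DSC3, the desmocollin of the lower layers, rose by 0.53 (SE 0.08, adjusted p = 1.32e-07). HaCaT-Mock had 9.64, 9.65 and 8.91 under PBS and 9.20 to 10.47 (median 10.06) under the inhibitors, and in HaCaT-EGFR all 9 inhibitor arrays (10.12 to 10.91) exceeded both PBS arrays (9.71 and 9.79). DSG2, the desmoglein of simple epithelia and basal cells, rose by 0.42 (SE 0.06, adjusted p = 1.06e-08), and all 9 inhibitor arrays of HaCaT-Mock (11.34 to 11.95, median 11.66) lay above its PBS arrays (11.26, 11.21 and 11.06). DSC2, the widespread desmocollin, rose by 0.52 (SE 0.04, adjusted p = 2.03e-16). In HaCaT-PIK3CA it was at 9.48, 9.58 and 9.43 under PBS and at 9.78 to 10.22 (median 10.14) in the inhibitor arrays, 8 of 8 above all PBS arrays. The highest of these, 10.22, was afatinib replicate 1, the array with high DUSP6. DSC1 rose by 0.23 (SE 0.05, adjusted p = 0.000147) at values that stayed between 3.24 and 4.13 under the inhibitors, and DSG1 did not pass (change -0.05, 95% interval -0.14 to 0.04, adjusted p = 0.437).

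Of the plaque genes, PKP1, which clusters desmosomal proteins and stabilises the junction, had the largest change of the 10 transcripts by the probe sets used, at 0.83 (SE 0.06, adjusted p = 2.1e-17, 1.775-fold). It was at 9.10, 8.98 and 8.90 in HaCaT-Mock under PBS and at 9.78 to 10.55 (median 10.09) under the inhibitors, 9 of 9 above all PBS arrays. In HaCaT-EGFR the PBS arrays were at 9.11 and 9.18 and the inhibitor arrays at 10.14 to 10.79 (median 10.45), again apart. In HaCaT-PIK3CA 7 of 8 inhibitor arrays were above the PBS arrays (8.93, 8.90 and 9.15), and the 8.82 below them was afatinib replicate 1, the array with high DUSP6.

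JUP, shared by desmosomes and adherens junctions, rose by 0.45 (SE 0.05, adjusted p = 6.84e-11). In HaCaT-Mock it was at 9.94, 9.97 and 9.84 under PBS and at 10.26 to 11.33 (median 10.41) under the inhibitors. The 3 highest of these came from batch M, which held no HaCaT-Mock PBS array, and within batch J the change was 0.44 and within batch E 0.50. DSP, the link to keratin, rose by 0.20 (SE 0.04, adjusted p = 9.82e-06), a smaller step on a high level (11.62 to 12.05 under PBS and 11.81 to 12.27 under the inhibitors in HaCaT-Mock). PKP3 did not pass, with a change of 0.08 (95% interval -0.00 to 0.15, adjusted p = 0.117). Each further probe set of a called member had a change of the same sign as the one used, 0.36 to 0.95 for the other 3 of DSC2. The other probe set of PKP1 gave 0.48 (SE 0.05), less than the 0.83 of the one used. The second probe set of PKP3 gave 0.01 (SE 0.05, unadjusted p = 0.848).

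**Figure D1:**
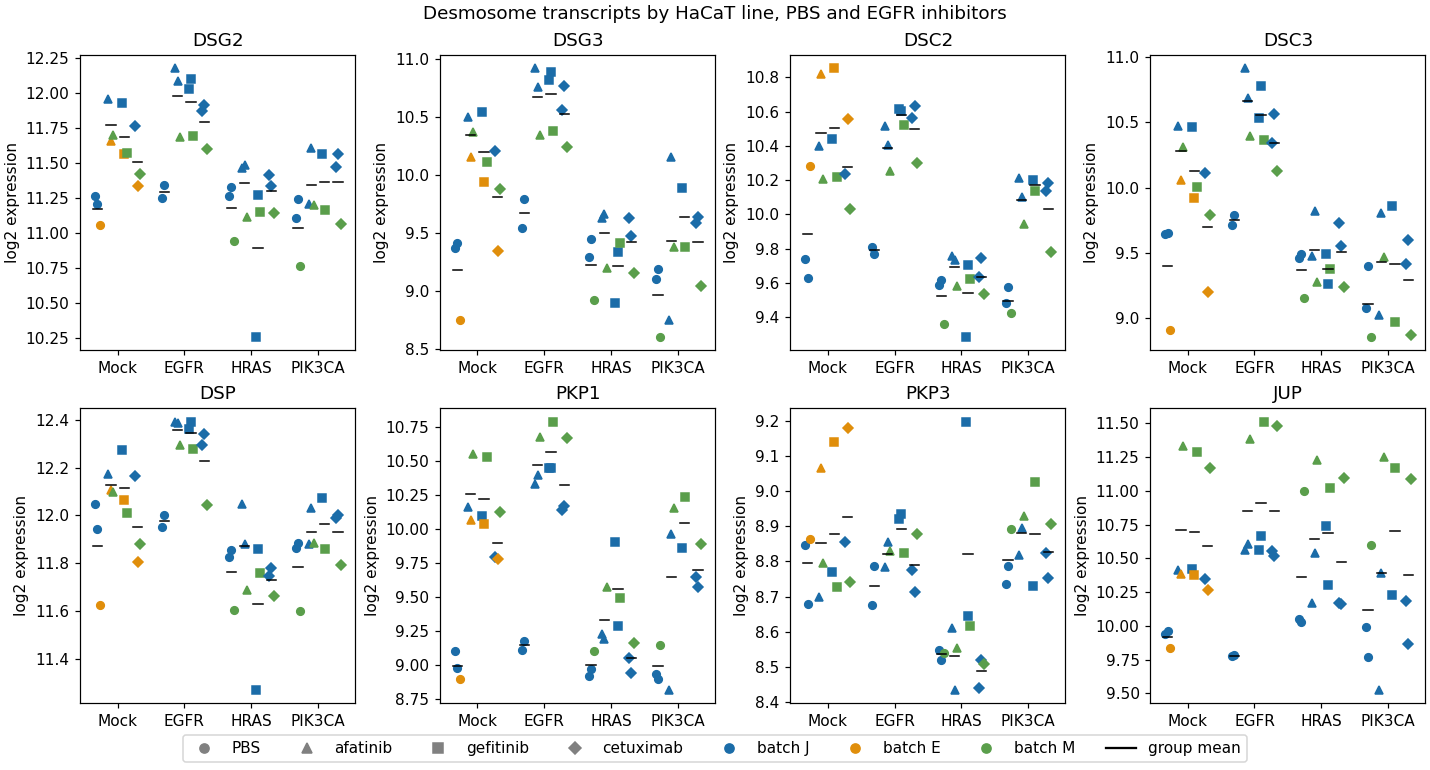
Log2 expression of 8 desmosome transcripts (vertical axes, each with its own range) in the 4 HaCaT lines under PBS and 3 EGFR inhibitors, 1 point per array, with symbols for treatment, colours for batch and a line at each group mean. In HaCaT-Mock and HaCaT-EGFR the inhibitor arrays of PKP1 lie above the PBS arrays (9 of 9 in each line). Those of HaCaT-HRAS start at 8.94, within the PBS range, and 7 of 9 lie above all PBS arrays.

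Taken line by line, 7 transcripts were higher in HaCaT-Mock (14.5% of all genes), 8 in HaCaT-EGFR (13.6%) and 6 in HaCaT-PIK3CA (10.2%), and no member was called in HaCaT-HRAS, where 6.01% of all genes were called in either direction and 2 members had an unadjusted p under 0.05. The groups of these comparisons hold separate arrays, but the batch terms and the spread were estimated over all lines together. HaCaT-Mock had a PKP1 change of 1.02, HaCaT-EGFR of 1.19, HaCaT-PIK3CA of 0.78 and HaCaT-HRAS of 0.32 (adjusted p = 0.0856). The DSG3 change was 1.08, 1.11, 0.56 and 0.16 (adjusted p = 0.7) in the same order. In HaCaT-HRAS DSG3 was at 9.29, 9.44 and 8.92 under PBS and between 8.89 and 9.66 (median 9.41) under the inhibitors, and 4 of 9 inhibitor arrays lay above all PBS arrays. Without the gefitinib array of high ACTB difference no member was called in HaCaT-HRAS either, and PKP1 was called there (0.22, adjusted p = 0.0223) when both batch J gefitinib arrays of HaCaT-HRAS and afatinib replicate 1 of HaCaT-PIK3CA were left out. The same omission gave 8 called members in HaCaT-PIK3CA, and its count was 3 without PBS replicate 3 and 2 among batch J arrays alone.

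**Figure D2:**
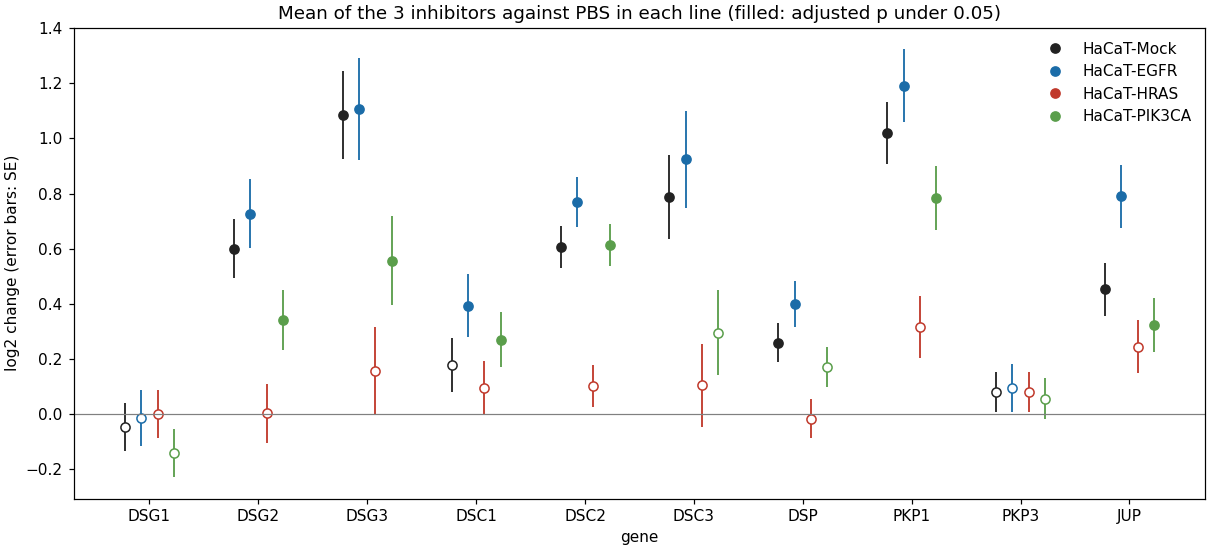
Change in log2 expression from PBS to the mean of 3 EGFR inhibitors (vertical axis, bars show the SE) for the 10 desmosome genes (horizontal axis) in each HaCaT line, filled where the adjusted p was under 0.05. All points of HaCaT-HRAS are open, and PKP1 and DSG3 changed by over 1 in HaCaT-Mock and HaCaT-EGFR.

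Whether the response differed between lines was tested as an interaction. The response of HaCaT-HRAS was smaller than that of HaCaT-Mock for 5 members, while 4.7% of all genes had a lower response there. The differences were -0.93 for DSG3 (SE 0.22, adjusted p = 0.00339), -0.70 for PKP1 (SE 0.16, adjusted p = 0.00181), -0.68 for DSC3 (SE 0.21, adjusted p = 0.0297), -0.60 for DSG2 (SE 0.15, adjusted p = 0.00568) and -0.51 for DSC2 (SE 0.11, adjusted p = 0.000799). DSP, at -0.28 (95% interval -0.48 to -0.07, adjusted p = 0.0745), and JUP, at -0.21 (95% interval -0.48 to 0.07, adjusted p = 0.43), did not pass. All 5 differences passed without the gefitinib array of high ACTB difference (-0.85, -0.77, -0.68, -0.48 and -0.46 in the same order), but only DSC2 passed among batch J arrays alone and only PKP1 with no batch term. DSG2 and DSC3 each did not pass in 4 of 11 alternatives (adjusted p up to 0.383 and 0.575). The inhibitor change of the other DSG2 probe set was 0.02 (SE 0.17) in HaCaT-HRAS and 0.58 (SE 0.17) in HaCaT-Mock. DSC3 did not pass without HaCaT-Mock PBS replicate 3, without HaCaT-HRAS PBS replicate 2 or 3, or without the 4 HaCaT-Mock arrays of batch E (-0.68, adjusted p = 0.0672). No member's response differed from HaCaT-Mock in HaCaT-EGFR (differences 0.01 to 0.34, 0.0708% of all genes called, 1 member with an unadjusted p under 0.05) or in HaCaT-PIK3CA (differences -0.53 to 0.09, 0.142% called, 2 such members). The 3 interactions share the HaCaT-Mock arrays.

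Each inhibitor was also compared on its own, averaged over lines and against the same PBS arrays. Afatinib at 10 nM raised 8 (19.0% of all genes), gefitinib at 100 nM raised 9 (19.2%) and cetuximab at 100 nM raised 8 (14.2%). DSG1 and PKP3 were the members not called under afatinib and under cetuximab, and DSG1 the one under gefitinib. The PKP1 change was 0.84 for afatinib, 0.99 for gefitinib and 0.66 for cetuximab, and the DSG3 change was 0.80, 0.77 and 0.61. The DSC3 change was 0.64, 0.56 and 0.38. The doses and kinds of agent differ, and the inhibitors were not tested against each other. The ninth gene under gefitinib was PKP3 (0.14, SE 0.05, adjusted p = 0.0122), whose highest value in HaCaT-HRAS, 9.20, was the array of high ACTB difference. Without that array the PKP3 change was 0.09 (adjusted p = 0.0523), and it was not called without gefitinib replicate 2 of HaCaT-PIK3CA or without the 4 HaCaT-Mock arrays of batch E (0.12, adjusted p = 0.063) either. PKP3 under gefitinib did not pass in 6 of 11 alternatives (adjusted p up to 0.124). Without the HaCaT-PIK3CA afatinib array of high DUSP6 the afatinib changes were 0.93 for PKP1, 0.91 for DSG3, 0.72 for DSC3 and 0.20 for DSC1 (adjusted p = 0.00701). DSC1 under afatinib (0.17, adjusted p = 0.0229) was not called without afatinib replicate 2 or PBS replicate 1 of HaCaT-EGFR or of HaCaT-PIK3CA.

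The constructs themselves were compared under PBS to ask how they differed in the junction genes without an inhibitor. EGFR transcript in HaCaT-EGFR was not above HaCaT-Mock by the probe set used (change -0.00, SE 0.11, adjusted p = 0.998 under PBS, and -0.12, adjusted p = 0.705, under scramble siRNA), and whether that probe set reads the vector's transcript was not tested. The series' design text gives the empty vector and the EGFR construct the same name, HaCaT-Mock, and the groups follow the names in the sample labels. No desmosome member differed from HaCaT-Mock in limma. In HaCaT-EGFR, 0.698% of all genes were called in either direction and no member had an unadjusted p under 0.05. In HaCaT-HRAS it was 16.1% and 1 member, and in HaCaT-PIK3CA 0.162% and 1 member. The members' changes lay between -0.13 and 0.33 in HaCaT-EGFR, between -0.20 and 0.15 in HaCaT-HRAS and between -0.32 and 0.09 in HaCaT-PIK3CA. After adjustment for batch, DSG3 under PBS was at 9.47 in HaCaT-EGFR, 9.17 in HaCaT-HRAS, 9.14 in HaCaT-Mock and 8.91 in HaCaT-PIK3CA, and none of the 3 constructs differed from HaCaT-Mock beyond the spread.

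Under scramble siRNA, 4 members were higher in HaCaT-EGFR than in HaCaT-Mock (1.81% of all genes): DSG3 by 0.92 (SE 0.19, adjusted p = 0.00186), DSC3 by 0.70 (adjusted p = 0.0206), PKP1 by 0.55 (adjusted p = 0.0146) and DSC2 by 0.51 (adjusted p = 0.000248). DSG3 was at 9.58, 9.65 and 8.91 in HaCaT-EGFR and at 8.90, 8.45 and 8.04 in HaCaT-Mock. The lowest array of each line came from batch M, and the difference was 0.94 within batch J and 0.88 within batch M. The count was 2 without HaCaT-Mock scramble replicate 3, 1 among batch J arrays alone and 0 with no batch term. In HaCaT-HRAS, 1 member, PKP3, was lower (-0.25, SE 0.09, adjusted p = 0.046), while 7.93% of all genes were lower. This call was lost without any 1 of the 6 arrays. In HaCaT-PIK3CA no member was called and none had an unadjusted p under 0.05 (0.0303% of all genes in either direction).

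Knockdown addressed the same question by lowering the receptor transcript. EGFR itself fell by 1.92 on the log2 scale over the 4 lines (SE 0.05, adjusted p = 8.13e-37, n = 12 against 12 arrays), from a mean of 10.64 to 8.53 in HaCaT-Mock, 10.52 to 8.82 in HaCaT-EGFR, 10.44 to 8.47 in HaCaT-HRAS and 10.37 to 8.47 in HaCaT-PIK3CA. Averaged over lines, 8 of the 10 desmosome transcripts were higher under siEGFR than under scramble siRNA and none was lower (14.2% of all genes higher), with a median change of 0.24 against -0.02 over all genes. None of these arrays was in the groups of the inhibitor comparison. Both comparisons came from the same fit, however, and share its batch terms and its estimate of the spread. HaCaT-EGFR and HaCaT-Mock had no PBS array in batch M. Their batch M inhibitor arrays were thus set against PBS through a batch term estimated from other groups as well, the siRNA groups among them. The 2 results are therefore not fully independent.

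DSC3 changed most, by 0.68 (SE 0.09, adjusted p = 2.06e-08, 1.604-fold). In HaCaT-Mock it was at 9.08, 8.59 and 8.14 under scramble and at 9.74, 9.88 and 8.77 under siEGFR, the last of each from batch M. In HaCaT-PIK3CA the values were 8.99, 8.54 and 8.18 against 9.62, 9.74 and 8.87. Each siEGFR array lay above every scramble array of its own batch in both lines.

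DSG3 rose by 0.53 (SE 0.10, adjusted p = 1.32e-05), PKP1 by 0.46 (SE 0.07, adjusted p = 3.3e-07), DSC1 by 0.36 (SE 0.06, adjusted p = 2.56e-06), and DSG2, DSP, JUP and DSC2 by 0.20 to 0.24. DSC1 had its highest value of all construct arrays, 4.65, in HaCaT-EGFR under siEGFR (4.19, 4.65 and 3.85, against 3.51, 3.49 and 3.59 under scramble). Within batch J the changes of the 8 genes lay between 0.18 and 0.66 and within batch M between 0.21 and 0.73. DSG1 (-0.06, adjusted p = 0.418) and PKP3 (0.09, adjusted p = 0.119) did not pass. The calls of DSG2 and DSC2 rest on the probe set used. The other probe set of DSG2 gave 0.17 (unadjusted p = 0.105), and the other 3 of DSC2 gave 0.23, 0.21 and 0.07 (unadjusted p = 0.0725, 0.0627 and 0.437). With no batch term DSG2, DSC2 (adjusted p = 0.0505) and JUP (adjusted p = 0.506) were not called.

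By line, siEGFR raised 4 members in HaCaT-Mock (5.45% of all genes), 5 in HaCaT-EGFR (4.75%) and 5 in HaCaT-PIK3CA (6.02%). None was called in HaCaT-HRAS (6.29% of all genes in either direction), where 2 had an unadjusted p under 0.05. DSG3, DSC3, PKP1 and DSC1 were called in the 3 lines other than HaCaT-HRAS, joined by DSC2 in HaCaT-EGFR and DSP in HaCaT-PIK3CA. The DSC3 change was 0.86, 0.66 and 0.84 in HaCaT-Mock, HaCaT-EGFR and HaCaT-PIK3CA, and 0.36 (95% interval -0.00 to 0.73, adjusted p = 0.304) in HaCaT-HRAS. Whether the knockdown response differed between lines was not tested. With 3 arrays a group these counts moved easily: leaving out single arrays gave 2 to 4 in HaCaT-Mock, 3 to 4 in HaCaT-EGFR and 2 to 3 in HaCaT-PIK3CA. DSG3 in HaCaT-EGFR and DSP in HaCaT-PIK3CA lost the call without any 1 of their 6 arrays. DSG3 and DSC1 lost it without any 1 of 4 of the 6 arrays in HaCaT-Mock and in HaCaT-PIK3CA, as did DSC3 without any 1 of 2 and PKP1 without any 1 of 3 in HaCaT-EGFR and PKP1 without 1 array in HaCaT-Mock. DSC3 in HaCaT-Mock and HaCaT-PIK3CA, DSC1 and DSC2 in HaCaT-EGFR and PKP1 in HaCaT-PIK3CA passed whichever array was left out. Leaving out the 3 inhibitor arrays in doubt, which enter the shared estimate of the spread, gave 7, 9 and 8, and 2 in HaCaT-HRAS. Batch J arrays alone, 2 against 2, gave 1 called member in each line but HaCaT-HRAS.

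**Figure D3:**
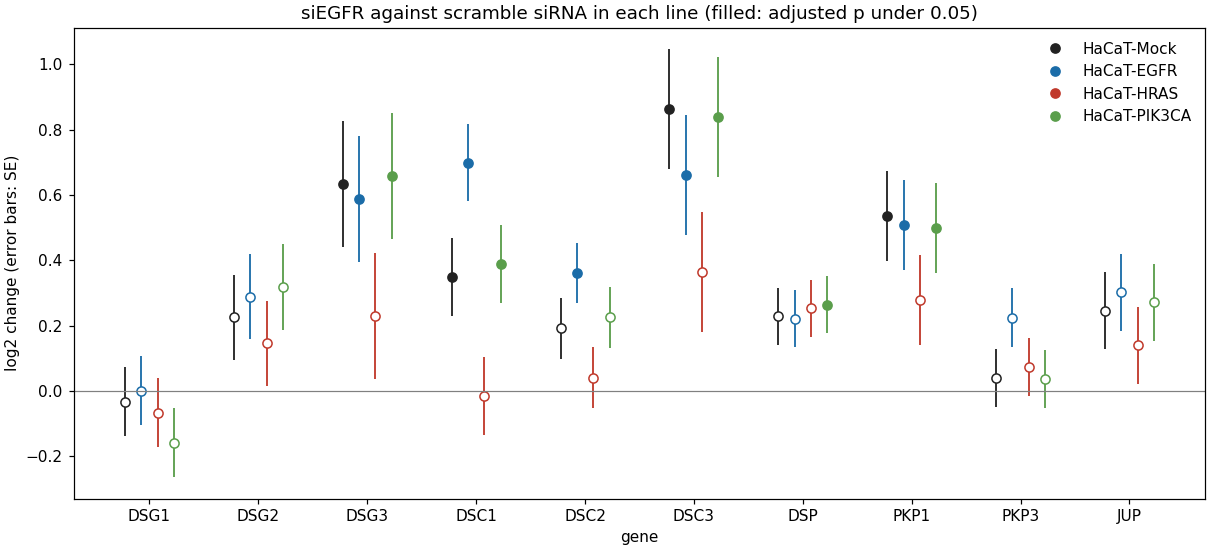
Change in log2 expression from scramble siRNA to siEGFR (vertical axis, bars show the SE, 3 arrays against 3) for the 10 desmosome genes (horizontal axis) in each HaCaT line, filled where the adjusted p was under 0.05. DSC3, DSG3, PKP1 and DSC1 are filled in HaCaT-Mock, HaCaT-EGFR and HaCaT-PIK3CA, and no point of HaCaT-HRAS is filled.

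A separate set of cultures received an inhibitor or PBS on top of scramble siRNA (12 arrays against 7). All inhibitor arrays of HaCaT-EGFR, HaCaT-HRAS and HaCaT-PIK3CA in this set were of batch E, with PBS arrays in batches J and E. The changes therefore lean on the batch E term, to which the HaCaT-Mock arrays of batch E without siRNA contribute. This comparison was not refitted without those HaCaT-Mock arrays. Averaged over lines 7 members were higher under the inhibitors (10.3% of all genes): PKP1 by 0.53 (SE 0.09, adjusted p = 6.65e-06), DSG3 by 0.46 (adjusted p = 0.00437), DSC3 by 0.41 (adjusted p = 0.00842), and JUP, DSC2, DSG2 and DSP by 0.21 to 0.31. In HaCaT-EGFR PKP1 was at 9.28 and 9.22 under PBS and at 10.07, 10.27 and 10.28 under afatinib, gefitinib and cetuximab. In HaCaT-HRAS it was at 8.60 and 8.74 under PBS and at 9.01, 8.92 and 8.84 under the same agents. HaCaT-Mock stood apart, since its single PBS array was at 9.83 and its inhibitor arrays at 9.95, 9.90 and 9.58. Without HaCaT-Mock 7 members were again called, with PKP1 at 0.71, DSG3 at 0.83, DSC3 at 0.68, JUP at 0.49 and DSG2 at 0.44. The adjustment for batch took DSC2 of HaCaT-EGFR under scramble siRNA with afatinib from 10.96 to 10.69. In HaCaT-EGFR the scramble arrays with PBS had DSC2 at 10.64 in batch J and 10.44 in batch E. The same values were 10.15 and 10.15 in HaCaT-HRAS and 10.21 and 10.33 in HaCaT-PIK3CA.

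Scramble siRNA cultures differed from PBS cultures in the junction genes as well (12 arrays against 11). Relative to PBS, 5 members were lower (13.5% of all genes): DSC3 (-0.50, SE 0.10, adjusted p = 3.66e-05), DSG3 (-0.43, adjusted p = 0.000516), JUP (-0.19), DSG2 (-0.18) and DSP (-0.16). The other probe set of DSG2 gave 0.04 (adjusted p = 0.863). Under the study's own choice of probe sets DSC3 was at -0.20 (adjusted p = 0.0127) and DSG3 at -0.26 (adjusted p = 0.00683). JUP was at -0.05 (adjusted p = 0.927) with no batch term. Of the 2 that were higher (13.6%), DSC2 changed by 0.42 (SE 0.05, adjusted p = 8.03e-10) and PKP3 by 0.13 (adjusted p = 0.0273). DSC2 was at 9.74, 9.63 and 10.28 in HaCaT-Mock under PBS and at 10.06, 9.88 and 9.67 under scramble, and the 10.28 was the batch E array. In HaCaT-EGFR it was at 9.81 and 9.77 against 10.45, 10.51 and 10.19, with no overlap. Among batch J arrays the DSC2 difference was 0.48 and the DSC3 difference -0.41. The DSG2 call was lost without any 1 of 11 arrays and the PKP3 call without any 1 of 4, and both were lost without the 4 HaCaT-Mock arrays of batch E (adjusted p = 0.0649 and 0.0638). The comparison uses the PBS arrays of the inhibitor comparison and the scramble arrays of the knockdown comparison.

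The carcinoma lines were set against HaCaT-Mock under PBS. In SCC1, 7 members were lower and none was higher (17.5% of all genes lower). DSC3 was at 3.54 and 3.47 in SCC1, at the 10.62 percentile of the probe sets of the array or below, against 9.64, 9.65 and 8.91 in HaCaT-Mock. The difference was -5.85 (adjusted p = 6.62e-31), and since the SCC1 signal lay near the lowest of the array its size is a lower bound. DSG3 was at 6.58 and 5.56 (difference -3.03, SE 0.23, adjusted p = 4.75e-17) and PKP1 at 6.59 and 6.98 (difference -2.39, SE 0.16, adjusted p = 7.54e-20). DSC2 differed by -1.92, JUP by -1.64, DSG2 by -1.59 and DSP by -0.75. PKP3, at 8.50 and 8.66, did not pass (-0.15, 95% interval -0.35 to 0.06, adjusted p = 0.307), nor did DSG1 and DSC1, which were at the bottom of the range in both lines. All 4 measured keratinocyte markers were called lower in SCC1 as well, with differences of -3.03 for KRT14, -1.73 for KRT5, -1.55 for CDH1 and -0.35 for SFN. Their median change was -1.64, against -1.61 for the 10 desmosome transcripts, and their part in the result was not tested.

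SCC25 was closer to HaCaT-Mock, with 3 members higher (19.5% of all genes) and 1 lower (22.7%). DSG3 was at 10.33 and 9.15 (difference 0.64, adjusted p = 0.0196), PKP1 at 9.43 and 9.90 (0.49, adjusted p = 0.007), PKP3 at 8.93 and 9.22 (0.35, adjusted p = 0.00408) and JUP at 9.53 and 10.50 (-0.34, adjusted p = 0.0322). The lower DSG3 array and the higher JUP array were both of batch M, which held no HaCaT-Mock PBS array, and JUP was at 0.10 (adjusted p = 0.909) with no batch term. The count of 4 became 1 without SCC25 replicate 2 and 2 without SCC25 replicate 1. Against SCC25, 8 members were lower in SCC1 (19.3% of all genes), from -5.62 for DSC3 to -0.50 for PKP3. Within batch J the DSC3 difference was -6.16 and within batch M -5.09, all lower bounds in size for the same reason. FaDu was measured once without treatment and once under PBS, with DSG3 at 7.28 and 7.73, DSC3 at 7.71 and 7.73 and PKP1 at 8.25 and 7.78. These values lay between those of SCC1 and those of HaCaT-Mock under PBS. The FaDu array under PBS was the only array of batch P and had an ACTB 3' to 5' difference of 2.645, against 0.4498 in the other. Parental HaCaT cells (1 array) had DSG3 at 9.82, DSC3 at 9.46 and PKP1 at 9.65. FaDu and parental HaCaT cells were not tested.

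**Figure D4:**
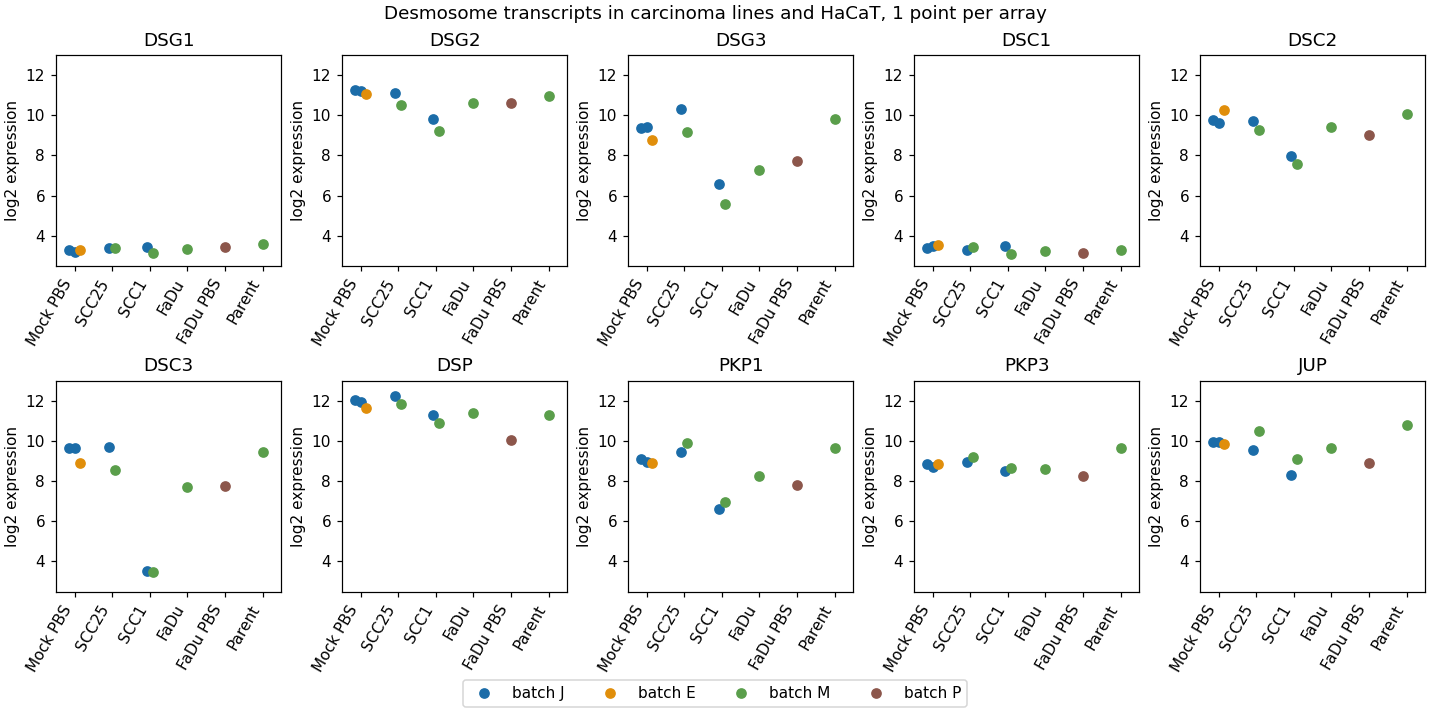
Log2 expression of the 10 desmosome genes (vertical axis) in HaCaT-Mock under PBS, the carcinoma lines SCC25, SCC1 and FaDu and parental HaCaT cells, 1 point per array, coloured by batch. DSC3 in SCC1 (3.54 and 3.47) lies at the bottom of the range, and PKP3 spans 8.24 to 9.67 over all lines.

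Over the batch-adjusted means of the 40 HaCaT groups the members' patterns ranged from nearly parallel to unrelated. DSG3 and DSC3, a desmoglein and a desmocollin, had Pearson's r = 0.98 (Spearman's rho 0.95), the highest r of either gene with any other of the 19775. DSG2, DSP and PKP1 had r of 0.88 to 0.93 with DSG3 and DSC3 and with each other. DSC2 had r = 0.43 with JUP and 0.67 with DSG3, and PKP3 at most 0.59 with any member (DSC2). The groups share lines, treatments and batches, so that these are descriptions without a test. The adjusted group means of DSG3 ran from 8.34 in HaCaT-PIK3CA and 8.41 in HaCaT-Mock under scramble siRNA to 10.70 in HaCaT-EGFR under scramble siRNA with gefitinib. Those of PKP1 ran from 8.72 in HaCaT-PIK3CA under scramble siRNA to 10.53 in HaCaT-EGFR under gefitinib.

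**Figure D5:**
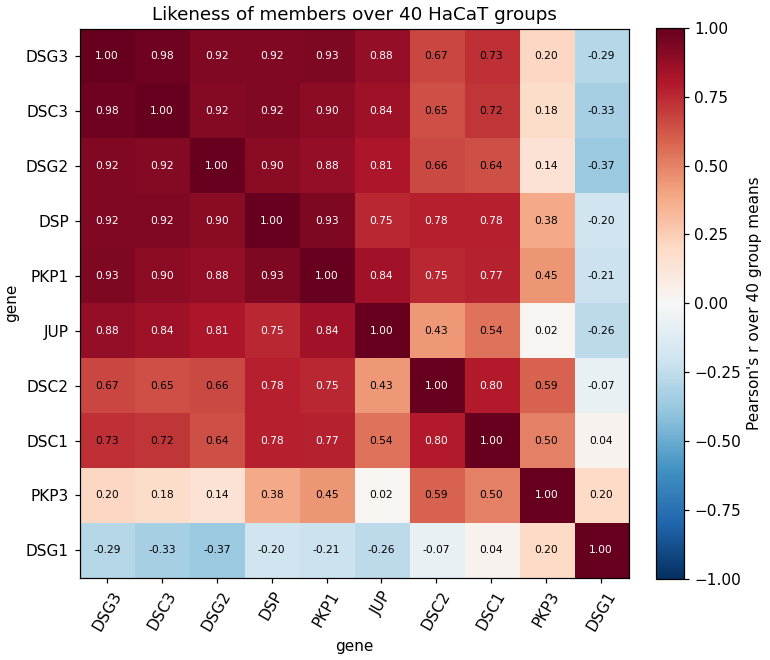
Pearson's r between the 10 desmosome genes over batch-adjusted means of 40 HaCaT groups, given in each cell and by colour. DSG3 and DSC3 form the closest pair (0.98), and DSG1 has r of at most 0.20 with any other member.

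The genes most like each member over the 40 groups were mostly outside the desmosome. PKP1 was most like HSPB1 (r = 0.98), a small heat shock protein, TGM1 (0.97), which crosslinks the cornified envelope, and TRIM29 (0.97). JUP was most like ARHGEF37 (0.95), ST6GALNAC2 (0.93) and TFAP2A (0.93), the gene of AP-2alpha. DSG3 and DSC3 had each other first, then GRAMD1C (0.95 with each) and DCAF6 (0.95) or IFT80 (0.95). DSG2 was most like C1RL (0.96), ANXA4 (0.95) and SH3BGRL (0.95), and DSP like ITM2B (0.97), SYNE2 (0.96) and CAST (0.96). DSC2 had S1PR5 (0.91), OSTF1 (0.90) and LPAR6 (0.90), and DSC1 had BCL6, UNC5B-AS1 and SGCE (0.81 each). PKP3 had USP47 (0.88), ASTE1 (0.86) and PTK7 (0.86), and DSG1, with LOC100506851 (0.64), FAM181A (0.62) and CLDN18 (0.61), had no close match.

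Neighbouring gene groups were set beside the desmosome for the inhibitors averaged over lines, where 19.8% of all genes were called higher and 19.4% lower. Of 5 measured keratin genes all 5 were higher, among them KRT1, an early differentiation keratin (1.13, SE 0.11), the basal keratin KRT5 (1.06, SE 0.07) and the wound keratin KRT16 (0.64, SE 0.06). Of 5 adherens junction genes 4 were higher, among them P-cadherin CDH3 (0.42) and E-cadherin CDH1 (0.40, SE 0.10), and CTNNB1, beta-catenin, was lower (-0.31). Of 8 further desmosome-associated genes 2 were higher, the envelope plakin PPL (0.43) and PERP (0.22), and 1, KAZN, was lower (-0.39), which is close to or under the shares of all genes. Of 5 hemidesmosome genes, which anchor cells to the basement membrane, 3 were lower and none was higher: ITGA6 (-0.37), DST (-0.36) and LAMB3 (-0.21). Of 7 regulators and sheddases 5 were higher, led by ERBIN (0.61), ADAM17 (0.32) and ADAM10 (0.18), of which the ADAMs are proteases of the cell surface.

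In HaCaT-HRAS against HaCaT-Mock under PBS, where no desmosome member was called, 6.74% of all genes were called higher and 9.34% lower. Of the 8 further desmosome-associated genes 1 was higher, PPL (0.37, SE 0.10, adjusted p = 0.0037). Of 5 keratin genes 2 were lower, KRT5 (-1.01, adjusted p = 2.55e-06) and KRT10 (-0.37), and 1 was higher, KRT16 (0.52). Of 5 hemidesmosome genes 1 was lower, DST (-0.93), and 1 higher, LAMB3 (0.69). Of 7 regulators and sheddases 2 were higher, the epidermal transcription factors ZNF750 (0.90) and GRHL1 (0.63), and none of the 5 adherens junction genes was called.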

How the data were processed

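RNA of 96 samples was measured on Affymetrix U133 Plus 2.0 arrays with 54675 probe sets. The authors deposited log2 expression values (2.651 to 14.5, none missing). Their methods describe fRMA normalization, pSVA batch correction and removal of outlier arrays. The sources used here do not say which of these steps went into the deposited values, and the submitters' processing notes name affy. Array medians lay between 5.082 and 5.175. Precision is limited by how many arrays a group has.

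Groups came from the labels. A single symbol was annotated for 41097 probe sets. The 1801 probe sets with more than 1 symbol and the 11777 without an entry were left out. Each of the 19775 genes, of which 10523 had more than 1 probe set, was represented by its brightest probe set on average over 89 construct arrays. The values were fitted with limma 3.58.1 in R 4.3.3, with a term for each of 40 groups and for batch (47 residual degrees of freedom), and with SCC1 and SCC25 added for the carcinoma comparisons (49). All 27 comparisons were adjusted by Benjamini-Hochberg over all genes, and a gene was called at an adjusted p under 0.05. Levels of a group are the deposited values, and changes are adjusted for batch. FaDu and parental HaCaT cells were given as values only.

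The members, the gene lists and the tests were chosen with earlier results of these data known. All 10 members were tested in every comparison, and the text gives those called and the values the results turn on. Of the other lists, up to 3 called genes with the largest change are named in the inhibitor comparison over lines and in HaCaT-HRAS against HaCaT-Mock. For each member the 3 genes with the highest Pearson's r over 40 group means are named. The fitting code was tested on simulated data. Alternatives were the study's probe set rule, batch J alone, no batch term, only the groups compared, array weights, a replicate block, a filter on low genes, quantile normalization, 3 arrays in doubt left out and each array left out in turn. These 3 were picked with earlier results known: replicates 1 and 2 of HaCaT-HRAS under gefitinib and replicate 1 of HaCaT-PIK3CA under afatinib. Replicate 2 of HaCaT-HRAS under gefitinib had no raised ACTB difference (1.452). Its array weight was the lowest of all, 0.02 against 0.058 for replicate 1, in a fit that stopped before convergence. Chosen after seeing the data were omitting the 4 HaCaT-Mock arrays of batch E, the first of those gefitinib arrays alone, and HaCaT-Mock from the scramble arrays. Promoter sequences came from RefSeq (GRCh38.p14). Tables and plots used the R package data.table (version 1.17.8), Python 3.11.15, pandas 2.3.3 and matplotlib 3.10.9.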

Additional observations from a re-analysis of the deposited data

Results flagged for a closer look

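The response to the inhibitors differed between HaCaT-HRAS and HaCaT-Mock for 5 desmosome transcripts by a test of the difference itself (limma, interaction term, 12 arrays in each line). The difference, HaCaT-HRAS minus HaCaT-Mock on the log2 scale, was -0.928 for DSG3, -0.7034 for PKP1, -0.6842 for DSC3, -0.5977 for DSG2 and -0.5058 for DSC2. The replicate 1 array of HaCaT-HRAS under gefitinib, with the high ACTB 3' to 5' difference, is part of each value. Its part was measured by leaving it out, which gave -0.85, -0.77, -0.68, -0.48 and -0.46. The DSG2 and DSC3 differences each did not pass in 4 of 11 alternatives.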

How the results depend on the processing

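For single genes that were called, 1033 of 1155 values under the alternatives kept direction and call, 120 lost the call and 2 reversed, and 1796 of 1888 values with 1 array left out kept both. The cause of these changes was not tested. DSG2 in scramble siRNA against PBS was 0.0359 under the study's probe set rule, and JUP in SCC25 against HaCaT-Mock was 0.1002 with no batch term. The number of members called averaged over lines for the inhibitors was 8 whichever array was left out.

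The numbers of members called moved as follows. With no batch term they were 0 for HaCaT-EGFR (main 4) and 0 for HaCaT-HRAS (main 1) against HaCaT-Mock under scramble siRNA, 2 for the inhibitors in HaCaT-PIK3CA (main 6), 5 for cetuximab (main 8), 1 for the response of HaCaT-HRAS minus HaCaT-Mock (main 5), 3 for the inhibitors among scramble arrays (main 7), 3 for scramble siRNA against PBS (main 7), 1 for SCC25 against HaCaT-Mock (main 4), and for siEGFR 0 in HaCaT-Mock (main 4), 1 in HaCaT-EGFR (main 5), 0 in HaCaT-PIK3CA (main 5) and 5 over the lines (main 8). With batch J alone they were 1 for HaCaT-EGFR and 0 for HaCaT-HRAS against HaCaT-Mock under scramble siRNA, 2 for the inhibitors in HaCaT-PIK3CA, 1 for the response of HaCaT-HRAS, 4 for scramble siRNA against PBS, 1 for SCC25 and, for siEGFR, 1 in HaCaT-EGFR, 1 in HaCaT-PIK3CA and 1 in HaCaT-Mock. With only the groups compared they were 2 for HaCaT-EGFR under scramble siRNA, 2 for the inhibitors in HaCaT-PIK3CA, 1 for the response of HaCaT-EGFR minus HaCaT-Mock (main 0) and 2 for the inhibitors among scramble arrays. With array weights, which stopped before convergence, they were 1 for HaCaT-HRAS under PBS (main 0), 4 for HaCaT-HRAS under scramble siRNA, 1 for the inhibitors in HaCaT-HRAS (main 0), 1 for the response of HaCaT-EGFR and, for siEGFR, 8 in HaCaT-Mock and in HaCaT-PIK3CA, 9 in HaCaT-EGFR and 3 in HaCaT-HRAS (main 0). Without the 3 arrays in doubt they were 3 for HaCaT-HRAS under scramble siRNA, 1 for the inhibitors in HaCaT-HRAS and, for siEGFR, 9 in HaCaT-EGFR, 7 in HaCaT-Mock, 8 in HaCaT-PIK3CA and 2 in HaCaT-HRAS. Among the 9888 genes at or above the median level they were 1 for the inhibitors and 1 for siEGFR in HaCaT-HRAS, and siEGFR in HaCaT-HRAS gave 1 with quantile normalization and 1 under the study's probe set rule.

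Leaving out single arrays gave 2 to 5 members for HaCaT-EGFR and 0 to 2 for HaCaT-HRAS against HaCaT-Mock under scramble siRNA, 0 to 2 for the inhibitors in HaCaT-HRAS (2 without gefitinib replicate 3), 3 to 8 in HaCaT-PIK3CA, 1 to 4 for SCC25 against HaCaT-Mock, and for siEGFR 2 to 4 in HaCaT-Mock, 3 to 4 in HaCaT-EGFR and 2 to 3 in HaCaT-PIK3CA. Replicate numbers were not treated as pairs in the main fit. Over 190 pairs of groups, most of them of different lines or siRNAs, the deviations of same-numbered arrays correlated between -0.209 and 0.222, with a median of 0.003. For an inhibitor and PBS in the same line they correlated between -0.02 and 0.109. With 2 arrays a group these values cannot decide whether the samples were paired. With a replicate block 2 members were called in SCC25 against HaCaT-Mock, 4 in the response of HaCaT-HRAS minus HaCaT-Mock, 6 for the inhibitors in HaCaT-Mock, 5 for scramble siRNA against PBS and 8 for the inhibitors over the lines. The inhibitors among scramble arrays could not be fitted with the replicate block or in batch J alone.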
